A study of Canis lupus familiaris with 10 samples.

Results

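Notch receptors, their ligands and the first genes they switch on were examined in tumor cells cultured from 10 dogs with hemangiosarcoma, a malignant tumor of cells that form blood vessels. The list held 10 genes, namely the receptors NOTCH1, NOTCH2, NOTCH3 and NOTCH4, the ligands JAG1, JAG2 and DLL4, and the target genes HES1, HEY1 and HEY2. Every probe set named for 1 of these genes was taken, which gave 10 probe sets for 8 genes among 42924 probe sets on the Canine_2 array, 3 of them for JAG1. No probe set was named for HES1 or HEY2, and these genes were not analysed here. The Golden Retriever group held 6 dogs (ChadG4, ChadG6, ChadG8, Frog, Journey and Tucker; 3 males and 3 females, 6 to 12 years old). The F1 dog, DD1, was a male aged 9 years from a Golden Retriever and a Great Pyrenees. The non-Golden Retriever group held 3 males aged 7 to 9 years, ChadP9 (labelled Portugese Water Dog), Dal4 (labelled Dalmation) and Joey (labelled Rottweiler). The cells of all 10 dogs were grown in culture from tumor tissue, the labels name no treatment, and each dog gave 1 array with no repeat culture, so an SD here holds the variation from dog to dog together with that of culturing and hybridization. Frog and Journey were related.

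Notch receptors are cut at the cell surface when a neighbouring cell presents a Jagged or Delta-like ligand. The freed inner part of the receptor moves to the nucleus, where it joins the DNA-binding protein RBPJ and a Mastermind coactivator and turns on repressors of the HES and HEY families. In blood vessels DLL4 and NOTCH1 restrain sprouting, NOTCH4 is found mainly in endothelial cells, and JAG1 on endothelium acts on NOTCH3 of the surrounding mural cells.

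Endothelial markers were above the low range of the array in part. Each signal was set against the 40th percentile of its own array. Of 12 endothelial markers, 6 exceeded this level on all 10 arrays with at least 1 probe set (KDR, CDH5, TIE1, CLDN5, ERG and ROBO4), 2 exceeded it on some (FLT1 and VWF) and 4 on none (PECAM1, TEK, ESAM and EMCN). Of 6 blood cell markers, 4 were above it on all 10 arrays (CD34, LAPTM5, CD14 and CSF1R) and PTPRC and SPI1 on none, while 5 of 6 fibroblast markers and 5 of 8 mural and smooth muscle markers were above it on all 10. Of 4 epithelial markers, KRT8 was above it on 9 arrays, KRT18 on 7, EPCAM on 2 (Tucker and Joey) and CDH1 on none. Over all 42924 probe sets, 52.9% were above it on all 10 arrays and 32.9% on none. The endothelial count of 6 of 12 was not above that share of 52.9%, but the 2 are unlike measures. The 52.9% is over single probe sets, whereas the 12 endothelial genes had 27 probe sets and more chances to pass. Over single endothelial probe sets the share above the level on all 10 arrays was lower than 52.9%. Each gene was counted by its best probe set. For CDH5 and ERG only 1 of 4 probe sets was above the level on all 10 arrays. For TIE1, CLDN5 and CSF1R it was 1 of 2, and for LAPTM5 1 of 3. In such bulk RNA, fewer cells of a type and less RNA per cell cannot be told apart. The arrays of Dal4 and ChadG4 stood apart from the rest, with mean distances to the other arrays of 145.3 and 139.3, against 102.1 to 124.5 for the other 8. Dal4 was recorded as male, but 1 probe set of EIF2S3, a translation factor gene on the sex chromosomes, had a signal of 2.95 in Dal4, 3.08 to 3.33 in the 3 females and 10.15 to 10.60 in the other 6 males. The remaining EIF2S3 probe sets placed Dal4 otherwise, at 12.56 and 11.47. These lay within the ranges of the other males (12.22 to 13.18 and 10.89 to 12.19). They were below those of the females (12.98 to 13.23 and 12.01 to 12.12).

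Of the 8 Notch genes with a probe set, 4 gave a signal above the low range of the array in every dog. Signals are on the log2 scale, on which the 40th percentile ran between 5.02 and 5.16. NOTCH2, NOTCH4, HEY1 and 1 probe set of JAG1 were above that percentile on all 10 arrays, whereas NOTCH1, NOTCH3, JAG2, DLL4 and another JAG1 probe set were above it on 0. Of all 42924 probe sets, 52.9% were above it on all 10 arrays and 32.9% on none. Of the members, 4 of 10 probe sets were above on all arrays and 5 of 10 on none. None of the 4 probe sets above it was far up the array in every dog, and 0 of them exceeded the median of the array on all 10 arrays. A signal under the 40th percentile is not shown to be absence of the transcript, since a probe set can also bind its target poorly.

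**Figure D1:**
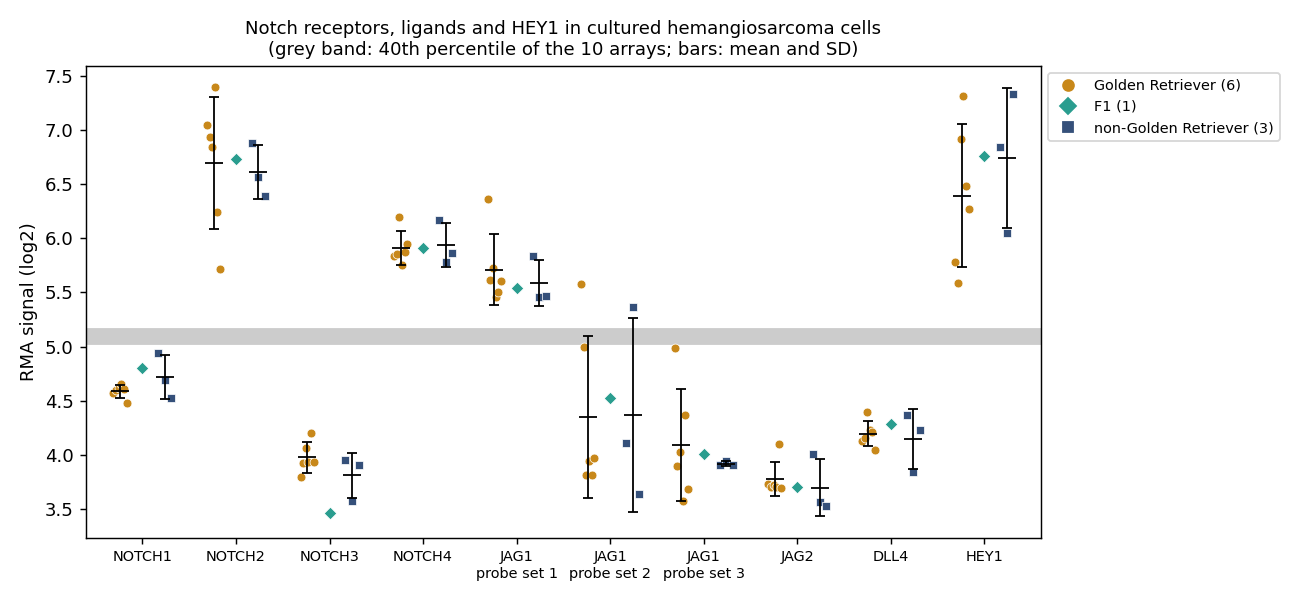
RMA signal (log2, vertical axis) of the 10 member probe sets, with 1 point per dog (circles, 6 Golden Retrievers; diamonds, the F1 dog; squares, 3 non-Golden Retrievers), the mean and SD of the purebred groups as bars, and the 40th percentile of the arrays (5.02 to 5.16) as a grey band. NOTCH2, NOTCH4, HEY1 and JAG1 probe set 1 sit above the band in every dog, and NOTCH1, NOTCH3, JAG2, DLL4 and JAG1 probe set 3 sit below it.

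Among the receptors, NOTCH2, which is widely used outside the endothelium, varied most between dogs. Its signals in Golden Retrievers were 7.05 in ChadG4, 6.94 in ChadG6, 6.84 in ChadG8, 7.39 in Frog, 6.24 in Journey and 5.72 in Tucker, against 6.88 in ChadP9, 6.56 in Dal4 and 6.39 in Joey among non-Golden Retrievers. The F1 dog had 6.73. Golden Retrievers held both the highest dog (Frog) and the lowest (Tucker), and the non-Golden Retrievers lay between them. In Tucker the signal was only 0.64 log2 units above the 40th percentile, and in Frog 2.35 above it. Over the 10 dogs the SD was 0.47, and 27.3% of tested probe sets varied as much or more.

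NOTCH4, the receptor most restricted to endothelium, was nearly level across the cultures. In Golden Retrievers it had signals of 5.83 in ChadG4, 5.85 in ChadG6, 6.20 in ChadG8, 5.75 in Frog, 5.87 in Journey and 5.95 in Tucker, against 6.17 in ChadP9, 5.78 in Dal4 and 5.86 in Joey among non-Golden Retrievers, and the F1 dog had 5.91. ChadG8 and ChadP9, 1 dog of each group, stood above the other 8. The SD was 0.15, and 90.6% of tested probe sets varied at least this much. The signal ranked between 49.7% and 55.0% of the way up each array.

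NOTCH1, the receptor that DLL4 engages in sprouting vessels, lay just under the 40th percentile. Its signals were 4.48 to 4.66 in the 6 Golden Retrievers (median 4.61), against 4.94, 4.70 and 4.53 in ChadP9, Dal4 and Joey, and 4.80 in the F1 dog. The nearest to the percentile was ChadP9, 0.19 below it. NOTCH3, the receptor of mural cells, was lower on its arrays, at 3.80 to 4.21 in Golden Retrievers (median 3.94), against 3.96, 3.57 and 3.91 in ChadP9, Dal4 and Joey and 3.46 in the F1 dog. For both genes the purebred groups overlapped, and neither gene was tested.

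JAG1 was the ligand with a signal, and it was highest in ChadG4. With its tested probe set (probe set 1), the signals of Golden Retrievers were 6.36 in ChadG4, 5.61 in ChadG6, 5.72 in ChadG8, 5.46 in Frog, 5.51 in Journey and 5.60 in Tucker, against 5.83 in ChadP9, 5.46 in Dal4 and 5.47 in Joey. The F1 dog had 5.54. Apart from ChadG4 the dogs of both groups lay within a narrow range, 5.46 to 5.83. Its SD of 0.28 was reached by 60.4% of tested probe sets. Of the other pathway genes examined below, the ligand DLL3 was also above the 40th percentile on all 10 arrays, at 5.33 to 5.71.

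The other JAG1 probe sets shared the high signal in ChadG4 and little else. Probe set 2 was above the 40th percentile in ChadG4 (5.58) and Dal4 (5.37) alone, just under it in ChadG6 (4.99), at 3.81 to 3.97 in the other 4 Golden Retrievers, and at 4.11 in ChadP9, 3.64 in Joey and 4.53 in the F1 dog. Probe set 3 had 4.99 in ChadG4, 0.09 under the percentile, and 3.58 to 4.37 in the other 9 dogs. Over 10 dogs, probe sets 1 and 3 correlated with r = 0.77 (permutation test, two-sided, p = 0.0436; rho = 0.37, p = 0.294), probe sets 1 and 2 with r = 0.49 (permutation p = 0.137) and probe sets 2 and 3 with r = 0.50 (permutation p = 0.132), with p-values not adjusted over these 3 pairs. Without ChadG4 the 3 values of r were 0.04, -0.15 and -0.03 (exact permutation p of 0.917, 0.717 and 0.940), so the agreement of the probe sets rested on that dog. In ChadG4 part of the mural and smooth muscle markers were low. Of these, 5 of 8 had their lowest signal there, and the mean signal of all 8 was 6.38, against 7.21 to 8.57 in the other dogs. ACTA2 weighed most in that gap, at 6.39 in ChadG4 against 9.73 to 14.13 in the other dogs. MCAM (6.82) and RGS5 (3.95) lay within the range of the other dogs, and CNN1 was lower in Joey (5.11) than in ChadG4 (5.86). Of the endothelial markers, 1 of 12 (VWF) had its highest signal there, and their mean signal was 5.67, against 4.97 to 5.73. The part of these differences in the JAG1 signal was not tested.

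**Figure D2:**
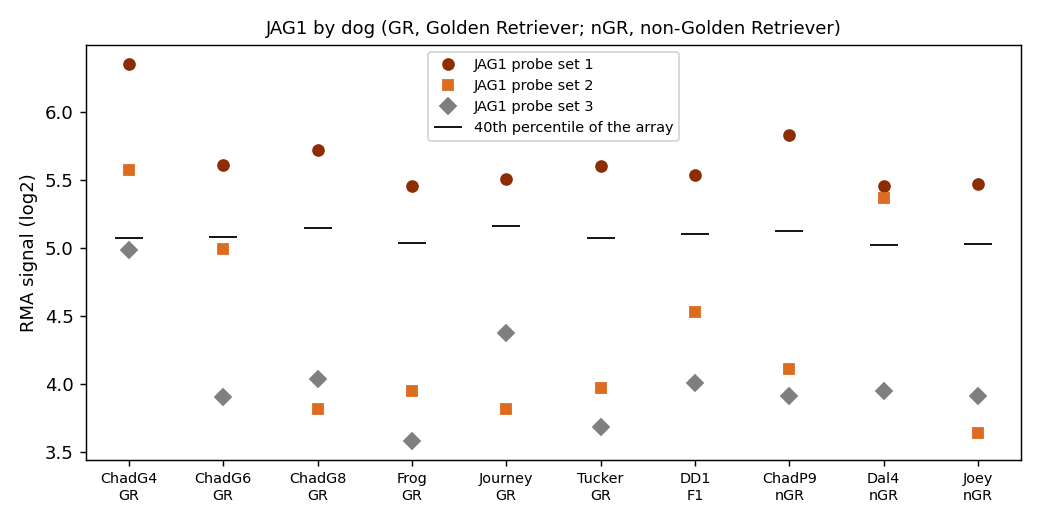
RMA signal (log2, vertical axis) of the 3 JAG1 probe sets in each dog, with the 40th percentile of that dog's array as a black dash. All 3 were highest in ChadG4 (6.36, 5.58 and 4.99), and probe set 2 was also above the percentile in Dal4 (5.37).

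JAG2 and DLL4 stayed under the 40th percentile in every dog. JAG2, a second Jagged ligand, had signals of 3.70 to 4.10 in Golden Retrievers (median 3.72), against 4.01, 3.57 and 3.53 in ChadP9, Dal4 and Joey, and 3.71 in the F1 dog. The highest was Journey, while the other 5 Golden Retrievers lay within 3.70 to 3.73. DLL4, the ligand of endothelial tip cells, had 4.05 to 4.39 in Golden Retrievers (median 4.19), against 4.37, 3.84 and 4.23 in ChadP9, Dal4 and Joey, and 4.28 in the F1 dog. The highest DLL4 signal, in ChadG8, was 0.75 log2 units below its percentile.

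HEY1, a repressor that Notch induces in endothelium and other cells, varied most of the tested members. Its signals in Golden Retrievers were 5.78 in ChadG4, 5.59 in ChadG6, 6.92 in ChadG8, 7.31 in Frog, 6.48 in Journey and 6.27 in Tucker, against 6.84 in ChadP9, 6.05 in Dal4 and 7.33 in Joey among non-Golden Retrievers. The F1 dog had 6.76. Joey and Frog, 1 dog of each group, were highest and differed by 0.016, whereas ChadG6 and ChadG4 were lowest. The range was 1.74 log2 units and the SD 0.60, and 15.5% of tested probe sets varied as much. With 1 array per dog, neighbours in this order have no error of their own to be compared with.

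Golden Retrievers and non-Golden Retrievers were compared to ask whether the breed label went with the level of a Notch gene, and no difference passed the test. By limma, 1 of 26891 tested probe sets reached an adjusted p under 0.05 (0.00372%). At an unadjusted p under 0.05 there were 6.32%, made up of 488 that were higher in Golden Retrievers and 1211 that were lower (1.81% and 4.5% of those tested). With each array centred on its median, these were 707 higher and 819 lower. Of the 4 tested members, 0 passed at either threshold, by limma or by the methods' t-test, and the groups overlapped for all 4, while 2.45% of all tested probe sets had groups that did not overlap.

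HEY1 averaged 6.39 ± 0.66 in Golden Retrievers (SD, n = 6) and 6.74 ± 0.65 in non-Golden Retrievers (SD, n = 3), a log2 difference of -0.35 (SE 0.41, 95% interval -1.27 to 0.58, limma adjusted p = 0.902). NOTCH2 averaged 6.70 ± 0.61 in Golden Retrievers and 6.61 ± 0.25 in non-Golden Retrievers, a difference of 0.08 (SE 0.34, interval -0.68 to 0.85, limma adjusted p = 0.978). JAG1 averaged 5.71 ± 0.33 in Golden Retrievers and 5.59 ± 0.21 in non-Golden Retrievers, a difference of 0.12 (SE 0.21, interval -0.35 to 0.60, limma adjusted p = 0.939). NOTCH4 averaged 5.91 ± 0.15 in Golden Retrievers and 5.94 ± 0.21 in non-Golden Retrievers, a difference of -0.03 (SE 0.15, interval -0.36 to 0.30, limma adjusted p = 0.983). The intervals were widest for HEY1 and NOTCH2 and narrowest for NOTCH4. Without ChadG4 the JAG1 difference was -0.01, and the HEY1 difference was -0.69 without Dal4, -0.05 without Joey, -0.18 without ChadG6, -0.22 without ChadG4 and -0.53 without Frog.

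**Figure D3:**
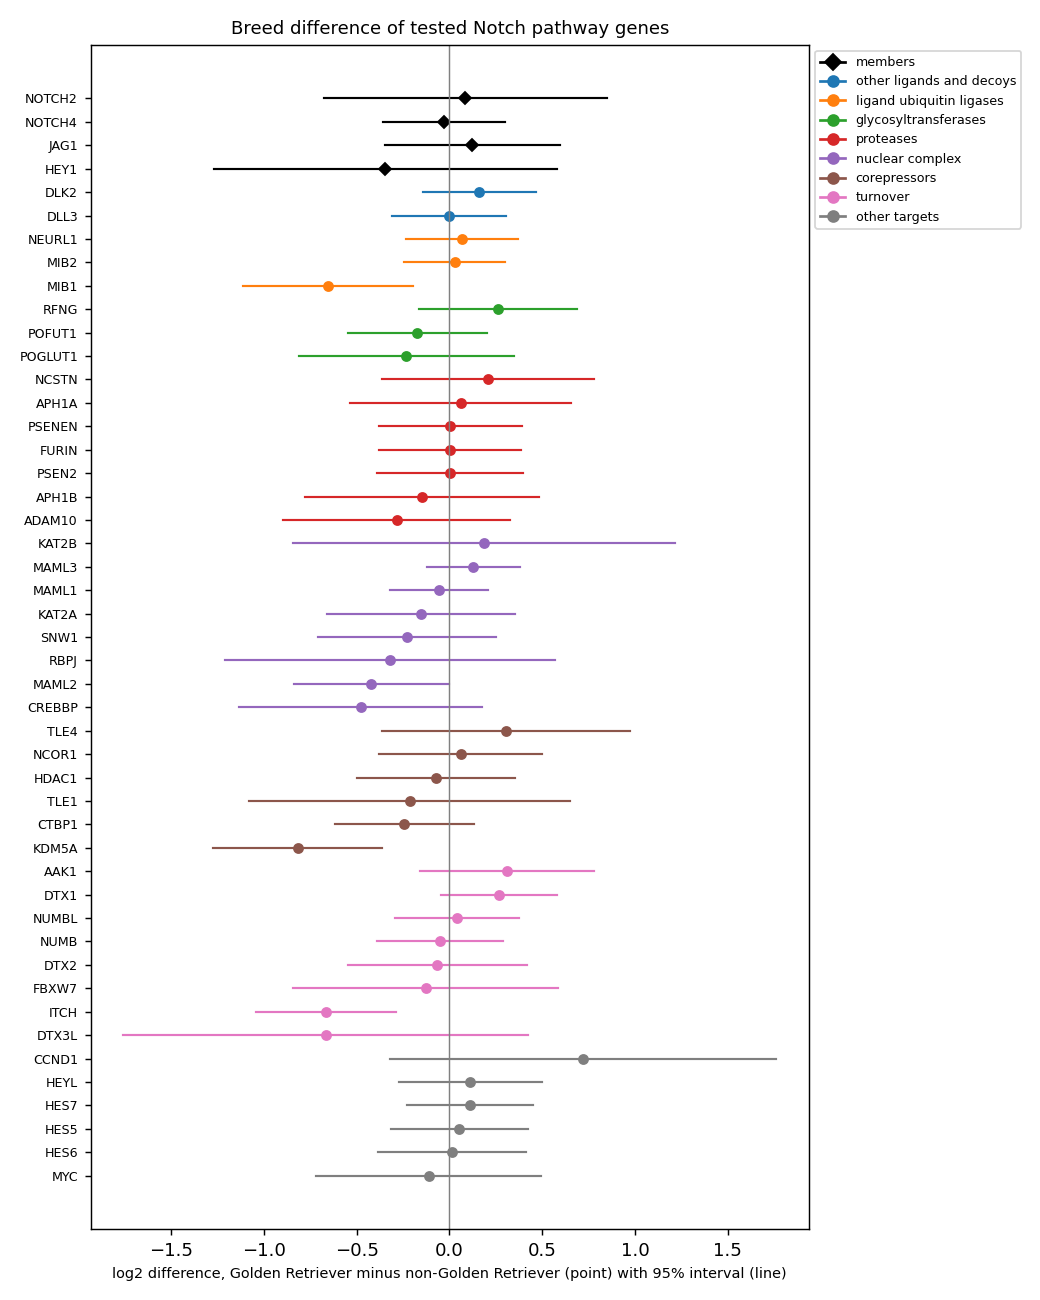
Golden Retriever minus non-Golden Retriever difference in log2 units (horizontal axis, point) with its 95% interval (line), for the 4 tested members (black diamonds) and 43 other Notch pathway genes colored by role. All 4 member intervals span 0, and those of KDM5A, ITCH, MIB1 and MAML2 lie below 0 before adjustment.

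Other genes of the pathway were taken from a list of 62, of which 53 had a probe set and 43 were tested. None passed at an adjusted p under 0.05, and 4 of 43 were lower in Golden Retrievers at an unadjusted p under 0.05, with 0 higher, where 4.5% of all tested probe sets were lower and 1.81% higher. With arrays centred on their median, 3 were lower and 1 higher. By the methods' t-test 5 passed that threshold, 2 higher and 3 lower. The median difference of the 43 was -0.002, against -0.017 over all tested probe sets, with 21 higher and 22 lower. By role, the signs were mixed. Of 8 genes of the nuclear complex 2 were higher and 6 lower. Of 7 genes for proteases that cut the receptor or its precursor, or for subunits of such a protease, 5 were higher and 2 lower. Of 6 other targets 5 were higher and 1 lower.

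With 1 probe set per gene, the groups did not overlap for 3 of the 43 genes, KDM5A, ITCH and MIB1, against 2.45% of all tested probe sets. KDM5A, a histone demethylase of the RBPJ repressor complex, had signals of 6.78 to 7.18 in Golden Retrievers (median 7.03), against 7.31 in ChadP9, 8.26 in Dal4 and 7.89 in Joey. Its log2 difference was -0.82 (SE 0.20, unadjusted p = 0.00268, limma adjusted p = 0.774). Another KDM5A probe set had a difference of -0.86 with groups that overlapped (7.42 in Tucker, 7.14 in ChadP9), and the other one was not tested. ITCH, a ubiquitin ligase that marks Notch receptors for breakdown, had 7.79 to 8.22 in Golden Retrievers (median 7.89), against 8.30 in ChadP9, 8.95 in Dal4 and 8.59 in Joey, without overlap and with a difference of -0.67 (SE 0.17, limma adjusted p = 0.774). Of the other 3 ITCH probe sets, 2 had differences of -0.55 and -0.47 and 1 had 0.23, and the groups overlapped in all 3.

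MIB1, the ubiquitin ligase that a cell needs to make its Notch ligands active, had 8.04 to 8.55 in Golden Retrievers (median 8.46), against 8.59 in ChadP9, 9.31 in Dal4 and 9.13 in Joey. Its groups did not overlap, by a margin of 0.03 log2 units, and the difference was -0.66 (SE 0.20, limma adjusted p = 0.774). Dal4 had the highest signal of all 3 genes, and without it the differences of KDM5A, ITCH and MIB1 were -0.60, -0.50 and -0.51, with unadjusted p-values by limma of 0.0137, 0.0166 and 0.052. The F1 dog had 6.99, 7.98 and 8.35, within the range of the Golden Retrievers for each. MAML2, a Mastermind coactivator, was above the 40th percentile on 3 arrays alone (ChadG4, ChadP9 and Joey), with a difference of -0.42 (SE 0.19, limma adjusted p = 0.774). Its unadjusted p was 0.0479, and 0.107 with arrays centred on their median.

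DTX1, an E3 ligase of the Deltex family, had a difference of 0.27, and CREBBP, a histone acetyltransferase of the active complex, had -0.48 (limma adjusted p of 0.779 and 0.793). The other 2 CREBBP probe sets had differences of -0.68 and -0.37, with unadjusted p-values by limma of 0.0295 and 0.0197 (limma adjusted p = 0.774 for both). The most variable pathway genes were the cell cycle gene CCND1 (SD 0.83 over 10 dogs), the Deltex family gene DTX3L (0.76), the acetyltransferase KAT2B (0.68) and RBPJ (0.58). CCND1 had 11.24 to 12.61 in Golden Retrievers (median 11.65), against 12.22, 10.99 and 10.11 in ChadP9, Dal4 and Joey, and the F1 dog was highest at 12.83. Their breed differences were 0.72 for CCND1, -0.67 for DTX3L, 0.19 for KAT2B and -0.32 for RBPJ, and none passed (limma adjusted p of 0.799 to 0.962). Single dogs moved these values: CCND1 was 0.23 without Joey and 1.28 without ChadP9, DTX3L was -0.43 without Joey, and RBPJ was -0.03 without ChadG4 and -0.21 without Joey.

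RBPJ, the DNA-binding partner that all 4 receptors share, was lowest in ChadG4, the dog with the highest JAG1. Its signals in Golden Retrievers were 5.38 in ChadG4, 7.49 in ChadG6, 7.02 in ChadG8, 6.93 in Frog, 7.09 in Journey and 6.997 in Tucker, against 6.97 in ChadP9, 7.08 in Dal4 and 7.35 in Joey, and the F1 dog had 6.67. ChadG4 was thus 1.29 log2 units below the next dog. The other 2 RBPJ probe sets were also lowest in ChadG4, at 4.51 against 5.49 to 6.53 and at 5.41 against 6.53 to 7.31 in the other dogs.

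**Figure D4:**
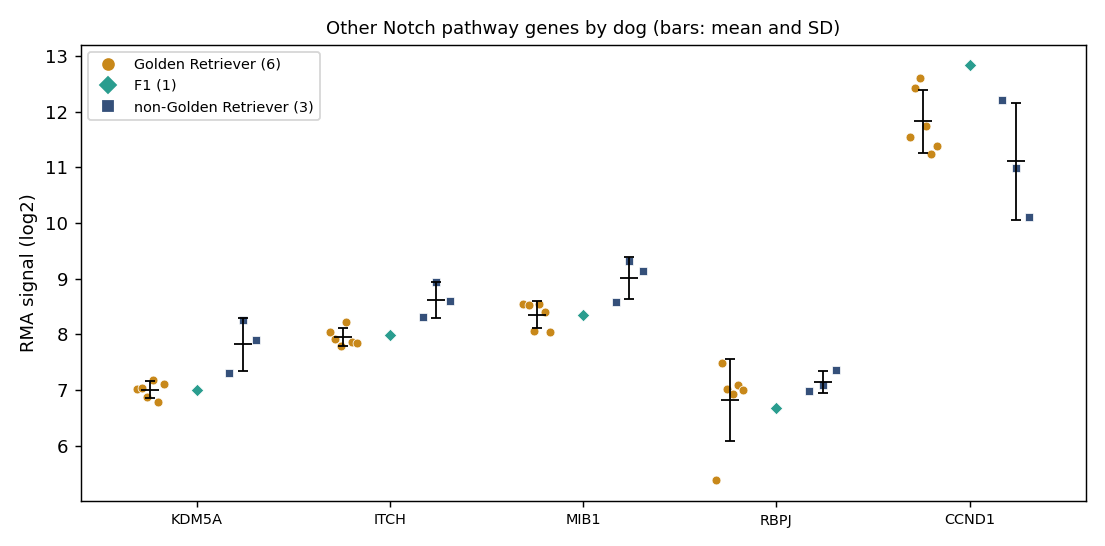
RMA signal (log2, vertical axis) of 5 other pathway genes, with 1 point per dog by group and the mean and SD of the purebred groups as bars. With the probe sets shown, KDM5A, ITCH and MIB1 were lower in all 6 Golden Retrievers than in the 3 non-Golden Retrievers, and RBPJ was lowest in ChadG4 (5.38).

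No pair of the 4 tested members passed a test of co-variation over the 10 dogs. Of the 6 pairs, 0 had a permutation p under 0.05, and the adjusted p-values over the 6 pairs were 0.769 or above for r and 0.618 or above for rho. JAG1 and HEY1, a ligand and a target, had the r farthest from 0 at -0.41 (permutation p = 0.247; rho = -0.32, p = 0.360), and 14.9% of tested probe sets had an r to JAG1 at least as low. The receptor pair NOTCH2 and NOTCH4 had r = -0.07 (permutation p = 0.846; rho = -0.39, p = 0.262). HEY1 had r = 0.10 with NOTCH2 (permutation p = 0.778; rho = -0.04, p = 0.918) and r = 0.24 with NOTCH4 (permutation p = 0.502; rho = 0.24, p = 0.515). JAG1 had r = 0.29 with NOTCH2 (permutation p = 0.373; rho = 0.29, p = 0.418). Within the 6 Golden Retrievers the 6 values of r ran from -0.50 to 0.23, and exact permutation p-values were 0.362 or above.

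NOTCH4 and JAG1 had r = 0.22 over the 10 dogs (permutation p = 0.513; rho = 0.52, p = 0.125). This value depended on single dogs. Without ChadG4 it was 0.91 (exact permutation p = 0.00174), and without ChadP9 and ChadG8, the 2 dogs farthest from the NOTCH4 median, it was 0.03 (exact permutation p = 0.920). Without ChadG4 and with each array set against its own 40th percentile, r was 0.86 (exact permutation p = 0.00167), and without ChadG4, ChadG8 and ChadP9 it was 0.69 over 7 dogs (exact permutation p = 0.0802). None of these p-values is adjusted for the number of pairs and settings. Leaving out the 2 dogs farthest from the median of the first gene gave 0.31 for NOTCH2 with NOTCH4, 0.72 for NOTCH2 with JAG1 (exact permutation p = 0.0311, not adjusted), -0.44 for NOTCH2 with HEY1, -0.11 for NOTCH4 with HEY1 and -0.23 for JAG1 with HEY1. The pairs DLL4 with NOTCH4, JAG1 with NOTCH3, HES1 with HEY1, HEY1 with HEY2 and NOTCH3 with HEY2 could not be given, because at least 1 gene of each was not tested or had no named probe set.

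**Figure D5:**
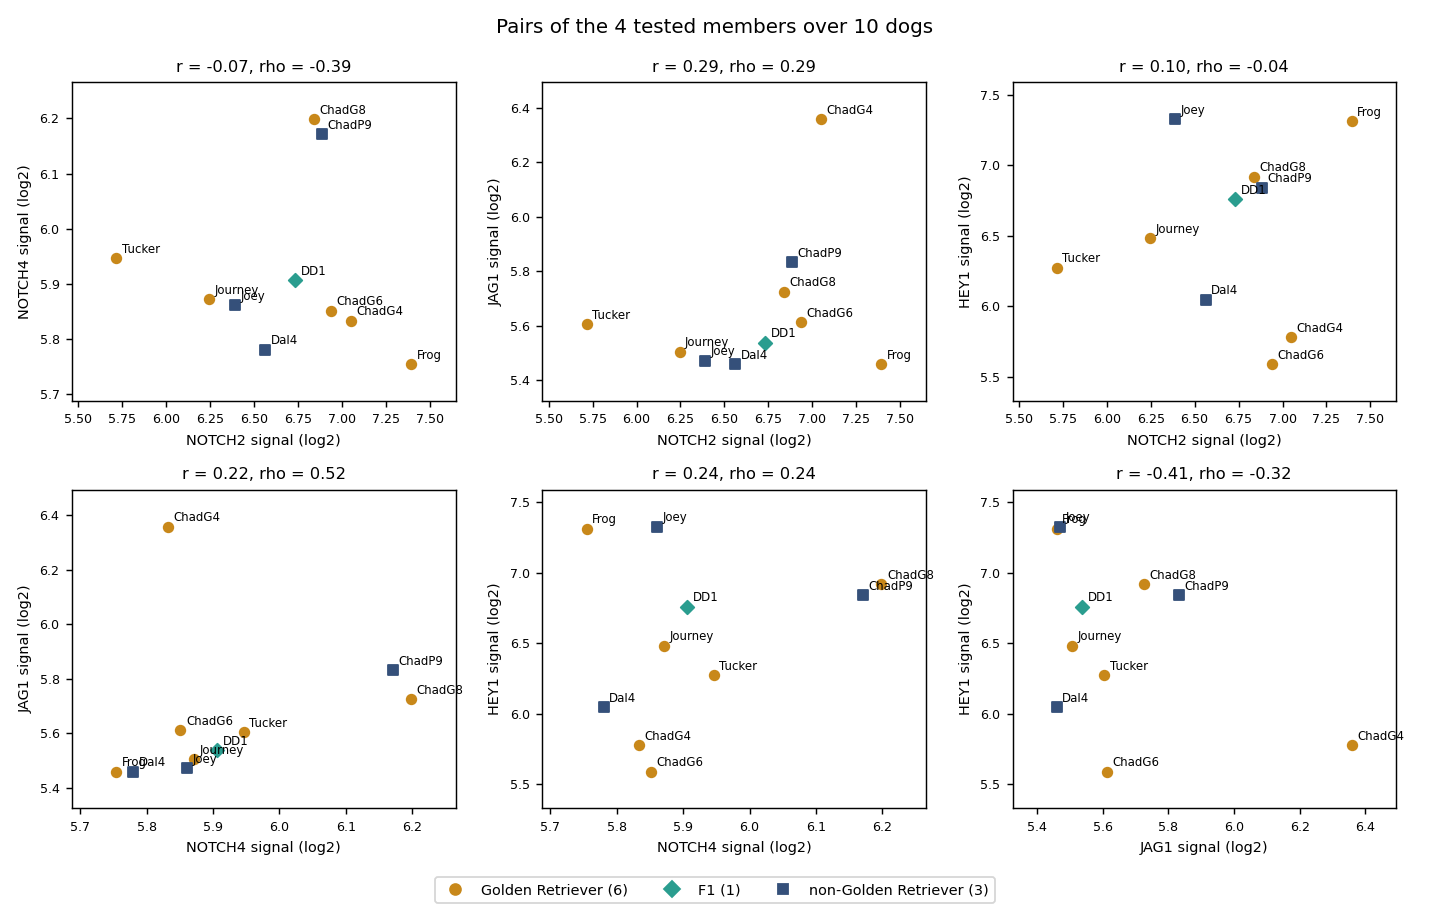
RMA signals (log2, both axes) of the 6 pairs of tested members, with 1 point per dog, colored by group, and r and rho above each panel. In the panel of NOTCH4 and JAG1 (r = 0.22), ChadG4 lies far above the other dogs, and ChadG8 and ChadP9 lie to their right.

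The genes most like HEY1, NOTCH2 and JAG1 over the 10 dogs were picked by r from all tested probe sets, so these values are a description. For HEY1 they were NIPAL2 (r = 0.92), PAPSS2, a sulfate-donor synthase (0.90), and SKIL, a repressor of TGF-beta signaling (0.87). For NOTCH2 they were SLC23A2, a vitamin C transporter (0.985), USP14, a deubiquitinase of the proteasome (0.97), and MBNL1, a splicing regulator (0.95). For JAG1 they were FCER1A, a chain of the IgE receptor (0.97), SDSL (0.97) and PXMP4, a peroxisomal membrane protein (0.96). Without Dal4 and ChadG4 the values for NOTCH2 were 0.99, 0.97 and 0.99 and those for HEY1 were 0.91, 0.86 and 0.85, while those for JAG1 were 0.86, 0.88 and 0.73. The highest and lowest dogs of NOTCH2 (Frog and Tucker) and of HEY1 (Joey and ChadG6) were kept. Whether the likeness to these 2 genes holds without them was not tested. All 3 genes most like JAG1 were highest in ChadG4, so their likeness to JAG1 rested partly on that dog. FCER1A had 7.42 there, against 4.91 to 5.64 in the other dogs. SDSL had 6.49, against 5.36 to 5.76, and PXMP4 had 7.72, against 6.88 to 7.19. By rank, rho to JAG1 was 0.93 for FCER1A, 0.64 for SDSL and 0.82 for PXMP4.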

How the data were processed

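RNA of hemangiosarcoma cells at the earliest available passages was hybridized to Affymetrix Canine_2 arrays, 1 per dog. The deposited log2 values were made by the authors with RMA (background correction, quantile normalization and summary per probe set; the affy package is named in the submitters' processing notes, version not given in the sources used here). Quantile normalization gives every array the same spread, so a shift shared by most genes is not visible. The authors' filter on absent calls is not applied to these values. Sex and age are from the study's table of dogs.

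From 43035 probe sets, 111 controls were left out. The 26891 probe sets above the 40th percentile of their array on at least 3 of 10 arrays were tested. Gene names come from the platform annotation: 29254 probe sets had 1 symbol, 439 several and 13231 none, and those with several were not used. Probe sets ending in _s_at hold probes that can match several transcripts. Golden Retriever minus non-Golden Retriever was fitted with limma 3.58.1 in R 4.3.3 (lmFit and eBayes, two-sided, Benjamini-Hochberg over all tested probe sets), with 6 and 3 dogs and without the F1 dog. The limma p-values rest on the spread between these arrays, moderated over all tested probe sets. That spread holds dog, culture and hybridization variation together, and the number of arrays limits the precision. The scripts were tested on simulated data. Correlations used SciPy 1.17.1 and NumPy 2.4.6 in Python 3.11.15 with 100000 permutations at 10 dogs and all permutations at fewer.

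A gene with several probe sets stands with its tested probe set of highest mean. Named were all members, of the pathway list the 6 genes of smallest unadjusted p and the 4 of largest SD, the 3 genes of highest r to each of the 3 most variable members, and all 6 member pairs. Members and lists were chosen with earlier results of these data known. Alternatives were other filters (the 50th percentile, variance, none), the methods' t-test, array weights, centring, males alone, the F1 dog in either group, and each dog left out. Further settings, on NOTCH4 with JAG1 and on males without Dal4, were chosen after seeing the data. No sequence or coordinate is given, since none was used here.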

Additional observations from a re-analysis of the deposited data

Results flagged for a closer look

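In the 6 Golden Retrievers 20 probe sets were examined, 10 of the members and 10 of named pathway genes. Of these, 3 had 1 dog far from the other 5. The rule is set to flag about 1 group in 20 by chance. That rate does not hold for RBPJ and the other 3 pathway genes taken for their large SD. The share of all tested probe sets that the rule flags was not computed, so 3 of 20 is not shown to be an excess. ChadG4, flagged for JAG1 and RBPJ, also had an array that stood apart from the rest. JAG1 was 6.36 in ChadG4, against 5.46 to 5.72 in the other Golden Retrievers. RBPJ was 5.38 in ChadG4, against 6.93 to 7.49 in the other Golden Retrievers. JAG2 was 4.10 in Journey, against 3.70 to 3.73 in the other Golden Retrievers, and all of these JAG2 signals were under the 40th percentile of their arrays.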

How the results depend on the processing

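For the 14 differences named for members and pathway genes, 262 alternative settings were set against the main fits, which are not counted among them. Of these, 249 had the same direction as the main fit, 13 had the opposite one and 0 passed an adjusted p under 0.05. Of all tested probe sets, the count at an adjusted p under 0.05 was 2 by the methods' t-test, 0 with the F1 dog counted as non-Golden Retriever and 1 to 2 with 1 dog left out. The count at an unadjusted p under 0.05, 1699 in the report, was 1093 with a filter on variance, 922 with the F1 dog counted as non-Golden Retriever, 1085 among males without Dal4, and 968 (without Dal4) to 3144 (without ChadP9) with 1 dog left out. Among males without Dal4, 2 of 43 pathway genes passed the unadjusted threshold. The NOTCH2 difference was -0.078 among males, -0.10 among males without Dal4, -0.055 without Frog and -0.026 without Joey, in a range of -0.055 to 0.28 with 1 dog left out. The NOTCH4 difference was 0.042 with arrays centred on their median, 0.055 among males, 0.0026 without Frog and 0.088 without ChadP9, in a range of -0.11 to 0.088. HEY1 ran from -0.69 to -0.05, CCND1 from 0.23 to 1.28 and RBPJ from -0.45 to -0.03 with 1 dog left out. JAG1 was -0.0064 without ChadG4, in a range up to 0.25. KAT2B was -0.12 with array weights, -0.11 among males without Dal4 and -0.062 without ChadP9, in a range of -0.25 (without Dal4) to 0.86. The cause of these changes was not tested. With the 50th percentile in place of the 40th, 0 member probe sets were above it on all 10 arrays. Without Dal4 and ChadG4, 1 pair had a permutation p under 0.05, NOTCH4 with JAG1 (r = 0.90, exact permutation p = 0.00444, not adjusted), and with 1 dog left out 0 to 1 pairs did. With 1 dog left out, r ran from -0.20 to 0.17 for NOTCH2 with NOTCH4 and from -0.18 to 0.26 for NOTCH2 with HEY1 (-0.0053 without Tucker). No paired analysis was possible because the labels give the dogs of the groups no shared numbers. Signals under the 40th percentile on most or all arrays, as in 6 of the 10 member probe sets, limit what can be said of NOTCH1, NOTCH3, JAG2, DLL4 and JAG1. The tested JAG1 probe set was also low, only 0.35 log2 units above the percentile in Journey. It exceeded the median of the array on 2 arrays alone.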

Other observations

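DNER, a Notch ligand of neurons, was not tested because it was above the 40th percentile on 2 arrays alone. It was named after its values were seen. Its signal was 7.28 in ChadG4, 5.22 in ChadG6 and 4.64 to 5.13 in the other 4 Golden Retrievers, against 4.76 in ChadP9, 4.81 in Dal4 and 4.76 in Joey, and the F1 dog had 4.94.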
